A study of Mus musculus with 9 samples.

Results

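The cell division genes are 45 genes of DNA replication and mitosis, 18 of them active around S phase and 27 in mitosis, and they were followed in regulatory T cells (Tregs) of the mouse gut. The members were given by name, and each was read from the array feature that the platform annotation assigns to it alone, taking the brightest feature where there were several. Of the 45 genes, 43 had such a feature among 22180 genes that did, and 33 of them (15 S phase and 18 mitotic genes) were among the 12792 genes bright enough to be tested. Cyclin B1 (Ccnb1) and cyclin E2 (Ccne2) had no feature of their own and were not analysed here.

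The RNA was hybridised to 9 Affymetrix Gene ST2.0 arrays. The 3 genotypes were Y3/CD103-/-, Y3 and wild type (WT), with 3 arrays each, all on a C57BL/6 background. In every group the Tregs were sorted from small and large intestinal lamina propria by a red fluorescent protein tied to Foxp3, so all 3 groups carry that reporter. Y3 is not described in the labels, and was read as an alteration of the IL-2 receptor β chain (IL-2Rβ) from the title of the series. CD103 is the αE integrin chain encoded by Itgae. The sources used here give no promoter of a transgene, no age or sex of the mice and nothing on pooling, and no group lacks CD103 alone. Since nothing says that the 3 arrays of a genotype came from separate animals, the p-values reflect array-to-array spread only, which may be technical. The number of arrays limits the precision.

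IL-2 is a growth factor of T cells. Its receptor signals through IL-2Rβ to STAT5 and other pathways that carry resting T cells into the cell cycle. At the entry to S phase the E2F transcription factors, freed from the retinoblastoma protein, switch on genes for replication and for the supply of deoxynucleotides. The DREAM and MMB complexes and FOXM1 act on mitotic genes, in part through the CHR element (cell cycle genes homology region) of their promoters. CCAAT boxes are also common in these promoters. Transcripts of mitotic genes are scarce in a population that holds few dividing cells. In RNA of sorted cells, more dividing cells and more RNA per dividing cell cannot be told apart.

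The promoters of 6 members are shown because these 6 had the smallest p in Y3 against WT, in each of the mitotic and the S phase group, among those whose promoter window in the RefSeq table (GRCm38.p6) held a searched element. Each line gives the 200 bases before the annotated start, 5′ to 3′ on the strand of the gene. Capitals mark the CHR (TTTGAA or TTTAAA), the CCAAT box (ATTGG) and an E2F-like site (TTCCCGC or TTGGCGC), each searched on both strands. TTTAAA reads the same on both strands, and the last letters of an E2F-like site on the other strand can also begin a CCAAT box.
Top2a, chr11:99024190-99024389, minus strand: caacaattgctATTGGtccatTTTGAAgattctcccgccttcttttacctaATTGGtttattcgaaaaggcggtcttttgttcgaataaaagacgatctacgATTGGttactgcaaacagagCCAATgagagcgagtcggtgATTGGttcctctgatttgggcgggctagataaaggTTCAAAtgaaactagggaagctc
Kif11, chr19:37376182-37376381, plus strand: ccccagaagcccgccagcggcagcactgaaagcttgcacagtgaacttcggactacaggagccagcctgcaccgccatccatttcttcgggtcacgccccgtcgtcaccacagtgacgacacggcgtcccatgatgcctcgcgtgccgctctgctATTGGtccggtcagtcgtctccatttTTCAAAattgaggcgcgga
Mki67, chr7:135716380-135716579, minus strand: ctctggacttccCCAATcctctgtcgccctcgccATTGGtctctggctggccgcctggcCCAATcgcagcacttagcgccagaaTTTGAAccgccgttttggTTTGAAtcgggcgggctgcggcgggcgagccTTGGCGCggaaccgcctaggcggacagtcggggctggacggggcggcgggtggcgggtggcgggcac
Mcm5, chr8:75109309-75109508, plus strand: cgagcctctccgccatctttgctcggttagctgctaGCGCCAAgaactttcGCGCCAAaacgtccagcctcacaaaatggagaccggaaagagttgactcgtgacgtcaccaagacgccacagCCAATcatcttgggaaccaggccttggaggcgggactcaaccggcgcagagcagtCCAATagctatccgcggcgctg
Rrm1, chr7:102441495-102441694, plus strand: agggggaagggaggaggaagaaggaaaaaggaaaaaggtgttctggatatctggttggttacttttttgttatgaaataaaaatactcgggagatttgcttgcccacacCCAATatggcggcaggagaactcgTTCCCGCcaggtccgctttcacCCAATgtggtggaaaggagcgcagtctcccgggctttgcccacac
Mcm6, chr1:128359706-128359905, minus strand: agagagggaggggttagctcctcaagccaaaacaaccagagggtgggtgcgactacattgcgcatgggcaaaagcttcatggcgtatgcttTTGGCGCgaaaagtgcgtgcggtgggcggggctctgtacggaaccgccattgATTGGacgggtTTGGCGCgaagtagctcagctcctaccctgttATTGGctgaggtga

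In Top2a a CHR on the other strand began 23 bases before the start, with 5 CCAAT boxes and a second CHR further upstream in the printed stretch. Kif11 had a CHR 19 bases and a CCAAT box 45 bases before the start. The mitotic gene Mki67 also held an E2F-like site, 67 bases before the start. Mcm5 carried 2 E2F-like sites, 164 and 149 bases upstream, and 2 CCAAT boxes closer in. Windows of 300 bases (250 before the start and 50 after it) were found for 37 of the 45 genes. The other 8 were Aurkb, Ccna2, Ccne2, Foxm1, Kif20a, Mcm4, Stmn1 and Tpx2. A CHR was present in 19 of 21 mitotic windows (90.5%) and in 7 of 16 S phase windows (43.8%), against 27.8% of all 27025 windows. The CCAAT box was present in 18 of 21 mitotic windows (85.7%) and 11 of 16 S phase windows (68.8%), against 37.9% of all. E2F-like sites were present in 4 of 21 mitotic windows (19.0%) and 8 of 16 S phase windows (50%), against 6.93% of all. A match describes the letters of these windows and shows no binding.

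T cell genes were bright on every array, with Foxp3 between log2 9.29 and 9.68 on the 9 arrays and all 11 Treg and T cell markers above their array's median on every array. Of these 11, Il2ra alone was called, with a log2 difference of -0.86 in Y3/CD103-/- against WT (limma, adjusted p = 0.026). In Y3 against WT it differed by -0.65, and 0 of the 11 were called. Itgae, the gene removed in Y3/CD103-/-, stood at 6.64, 6.05 and 6.86 in Y3/CD103-/-, against 9.35, 9.11 and 9.51 in Y3 and 8.06, 7.87 and 7.85 in WT, so that the Y3/CD103-/- arrays lay below all others. The sources used here do not say which part of Itgae the feature covers. Il2rb, which encodes IL-2Rβ, averaged 8.16 ± 0.31 in Y3/CD103-/-, 8.15 ± 0.32 in Y3 and 9.19 ± 0.22 in WT (SD, n = 3 each). Most genes lay a little higher on the Y3 arrays, where the median difference from WT over all 12792 genes was 0.15 log2, and 70.5% of genes lay above 0. It was 0.04 for Y3/CD103-/- against WT and -0.10 for Y3/CD103-/- against Y3, so the differences of the cell division genes are read against these medians. Quantile normalization brought the first of them to 0.04. Y3 array 2 stood apart from the other Y3 arrays, being the lowest of the 3 for 55.8% of all tested genes and for 22 of the 33 cell division genes. Y3 arrays 1 and 3 were the pair most alike (r = 0.979 over all features). Markers of other gut cells differed between genotypes. The mean log2 level of 27 intestinal epithelial markers ran from 3.95 to 5.55 in Y3/CD103-/-, 3.92 to 4.56 in Y3 and 4.79 to 5.69 in WT. That of 17 macrophage, monocyte and dendritic cell markers ran from 4.89 to 4.96, 4.37 to 4.52 and 4.68 to 5.34 in the same order, and that of 8 B and plasma cell markers from 3.89 to 4.33, 3.88 to 4.09 and 4.10 to 4.34. Of 7 markers of CD8, γδ T and NK cells, Gzma alone rose in Y3/CD103-/- and in Y3 and 0 fell, and their mean ran from 4.37 to 4.83, 4.71 to 4.83 and 4.51 to 4.63. Of the macrophage group H2-Aa fell in Y3 against WT, and of the epithelial markers 0 passed in limma. By unadjusted p under 0.05, 6 of these 27 were lower in Y3/CD103-/- and 14 in Y3 against WT. Of all genes, 5.35% and 3.60% were lower in these comparisons. Calls in limma covered 0.555% of all genes upward and 0.281% downward in Y3/CD103-/- against WT, and 0.618% and 0.172% in Y3. Crypt epithelium also divides, and 2 of its 3 stem cell markers were tested. Olfm4 stood at 3.61, 3.03 and 3.22 on the Y3/CD103-/- arrays, 2.94, 3.14 and 2.57 on the Y3 arrays and 4.14, 4.14 and 3.04 on the WT arrays. Lgr5 stood at 3.81, 3.32 and 3.85 on the Y3/CD103-/- arrays, 3.51, 3.31 and 3.42 on the Y3 arrays and 3.63, 3.08 and 3.44 on the WT arrays. Against WT, Olfm4 differed by -0.49 in Y3/CD103-/- and -0.89 in Y3, and Lgr5 by 0.28 and 0.03, so these markers had opposite signs. In Y3, however, each lay below the median of 0.15 for all genes, and neither marker passed in either comparison. The part of other cells in the results below was not tested. Fits with an epithelial covariate are given there. The epithelial means of Y3 and WT did not overlap, so in that comparison the covariate and the genotype cannot be told apart. With this covariate 7 of all tested genes were called higher and 3 lower in Y3 against WT.

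In Y3/CD103-/- Tregs, Top2a was the single cell division gene that passed an adjusted p under 0.05, rising 1.80-fold against WT. Several other genes lay higher without passing, among them the proliferation marker Mki67, the spindle motor Kif11, the helicase subunit Mcm5 and the mitotic transcription factor Foxm1. In Y3 Tregs 0 of 33 passed, with Top2a just short of the threshold. Of all tested genes 0.836% passed in Y3/CD103-/- and 0.790% in Y3 against WT, so 0 passing in a small group of genes is near that share. The median log2 difference of the mitotic genes from WT was 0.30 in Y3/CD103-/- and 0.16 in Y3, beside medians of 0.04 and 0.15 for all tested genes. Between Y3/CD103-/- and Y3 0 of 33 passed, and Foxm1 had the smallest p.

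**Figure D1:**
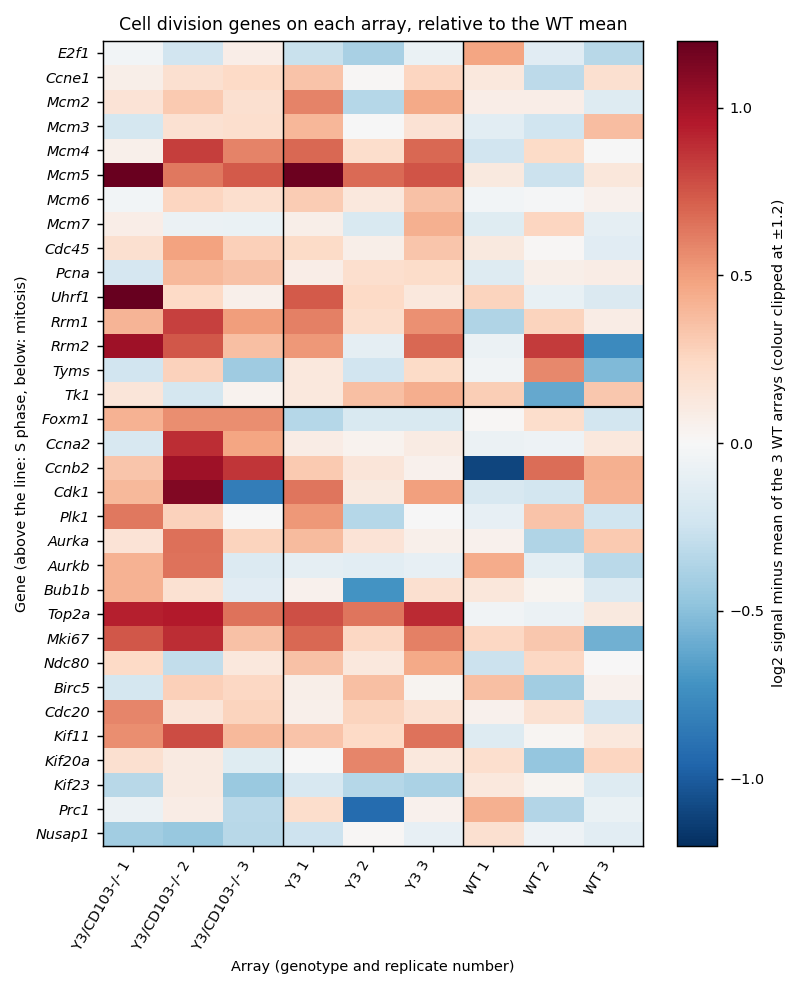
Log2 signal of the 33 tested cell division genes (rows) on the 9 arrays (columns), each gene relative to its mean on the 3 WT arrays, with red above and blue below that mean. The rows of Top2a, Mcm5 and Ccnb2 are red on all 6 arrays of the Y3/CD103-/- and Y3 genotypes. Other rows, such as Cdk1 and Ccna2, change colour between the Y3/CD103-/- arrays.

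Top2a encodes topoisomerase IIα, which untangles and condenses chromosomes before they separate. Its log2 signal was 5.07, 5.09 and 4.79 on the Y3/CD103-/- arrays, 4.91, 4.78 and 5.03 on the Y3 arrays and 4.09, 4.06 and 4.25 on the WT arrays. Every array of the Y3/CD103-/- and Y3 genotypes lay above every WT array, by at least the distance between 4.78 and 4.25, and these genotypes overlapped each other. The mean was 4.98 ± 0.17 (SD, n = 3) in Y3/CD103-/-, 4.91 ± 0.13 in Y3 and 4.14 ± 0.10 in WT. Against WT the log2 difference was 0.85 ± 0.15 (SE) in Y3/CD103-/- (limma, adjusted p = 0.0347) and 0.77 ± 0.15 in Y3 (adjusted p = 0.0513), where it did not pass. The call in Y3/CD103-/- was lost without any 1 of the 9 arrays (adjusted p from 0.0514 to 0.0978) and with the replicate number as a block (adjusted p = 0.08). With the epithelial marker mean as a covariate the difference was 0.89 in Y3/CD103-/- (adjusted p = 0.0895) and 0.84 in Y3 (adjusted p = 0.218). A pair of further features that the annotation gives to Top2a together with Taf1d were not used. They were brighter and ran lower in Y3/CD103-/-, at 6.00, 6.22 and 5.92 on the dimmer of them, against 6.46, 5.94 and 6.15 in Y3 and 6.50, 6.39 and 6.48 in WT. The brighter of them gave 6.74, 6.87 and 6.93 in Y3/CD103-/-, 7.29, 6.77 and 7.03 in Y3 and 7.36, 7.45 and 7.36 in WT. There every Y3/CD103-/- and Y3 array lay below every WT array, while on the dimmer feature Y3 overlapped WT. Why these features ran opposite to the one used was not tested.

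Mki67 encodes Ki-67, a protein that coats mitotic chromosomes and marks cycling cells. Its signal was 5.17, 5.31 and 4.77 on the Y3/CD103-/- arrays, 5.11, 4.67 and 5.03 on the Y3 arrays and 4.67, 4.75 and 3.85 on the WT arrays. All 3 Y3/CD103-/- arrays lay above the 3 WT arrays, the nearest by a small margin, and WT array 3 lay well below the other WT arrays. The log2 difference from WT was 0.66 ± 0.25 in Y3/CD103-/- (adjusted p = 0.288) and 0.52 ± 0.25 in Y3 (adjusted p = 0.326), and neither passed.

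Among the mitotic cyclins and their partners, 4 of 5 were tested and 0 passed in any comparison. Foxm1, the transcription factor that drives late cell cycle genes, had the genotypes in an order of its own. Its signal was 4.0, 4.13 and 4.14 on the Y3/CD103-/- arrays, 3.24, 3.39 and 3.39 on the Y3 arrays and 3.59, 3.79 and 3.35 on the WT arrays. The Y3/CD103-/- arrays lay above all 6 others, while the Y3 and WT arrays overlapped. Its log2 difference was 0.51 ± 0.16 for Y3/CD103-/- against WT (adjusted p = 0.185), -0.24 ± 0.16 for Y3 against WT (adjusted p = 0.468) and 0.75 ± 0.16 for Y3/CD103-/- against Y3 (adjusted p = 0.298). The last ranked 26th by p among the 12792 genes of that comparison. The mean level of the macrophage and dendritic cell markers was likewise higher on every Y3/CD103-/- array than on every Y3 array. By unadjusted p under 0.05, 7 of 17 markers were higher and 0 lower, where 1.78% of all genes were higher and 8.12% lower. The part of such cells in the Foxm1 values was not tested.

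Cdk1, the kinase that triggers mitosis, spread more within Y3/CD103-/- than between genotypes, at 3.63, 4.35 and 2.41 on the Y3/CD103-/- arrays, 3.88, 3.36 and 3.74 on the Y3 arrays and 3.05, 3.02 and 3.65 on the WT arrays. The 95% interval of its difference from WT ran from -0.66 to 1.11 in Y3/CD103-/- and from -0.47 to 1.30 in Y3, so changes of either sign remained possible. Ccnb2 (cyclin B2) was as uneven in WT, where array 1 gave 2.58 and arrays 2 and 3 gave 4.35 and 4.11. Its difference from WT was 0.74 in Y3/CD103-/- and 0.17 in Y3. Ccna2, the cyclin of S phase and early mitosis, differed by 0.39 and 0.08, and adjusted p for these 2 cyclins lay between 0.45 and 0.89.

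Of the mitotic kinases, Plk1, Aurka, Aurkb and the checkpoint kinase Bub1b were tested and 0 of 4 passed. Their differences ran from 0.15 to 0.36 in Y3/CD103-/- against WT and from -0.16 to 0.20 in Y3 against WT. The checkpoint kinases Bub1 and Ttk were too dim to test. Among kinetochore, passenger and anaphase genes, Ndc80, Birc5 (survivin) and Cdc20, the activator of the anaphase-promoting complex, were tested and 0 of 3 passed (0.02 to 0.34 in Y3/CD103-/- and 0.16 to 0.31 in Y3). The kinetochore genes Cenpe and Cenpf and the passenger gene Cdca8 were too dim.

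**Figure D2:**
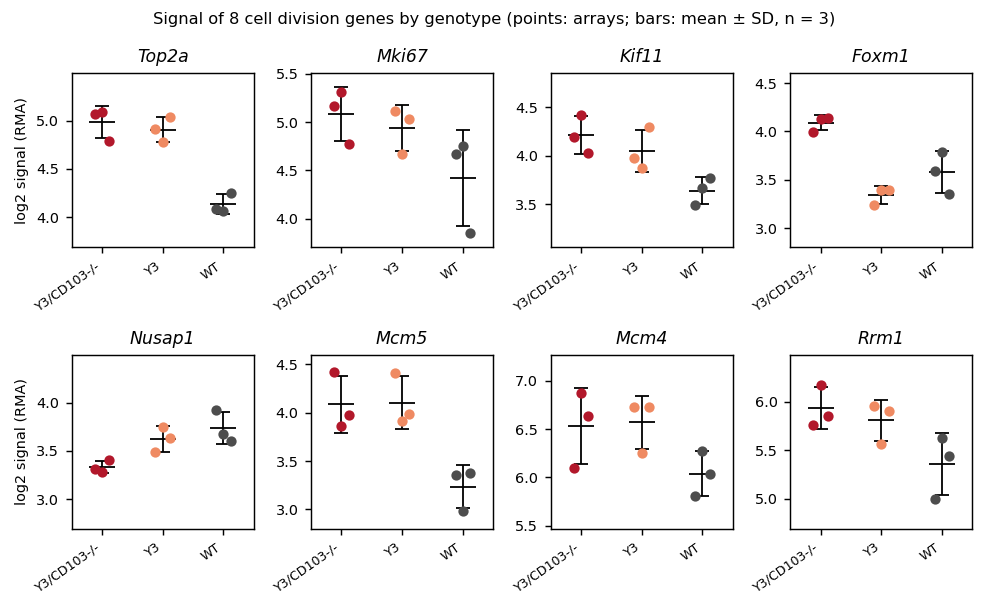
Log2 signal of 8 cell division genes on each array (points) with the mean and SD of the 3 arrays (bars), by genotype. The vertical axes have the same length but different positions. Top2a and Mcm5 separate the Y3/CD103-/- and Y3 genotypes from WT, Foxm1 separates Y3/CD103-/- from the others, and Nusap1 lies lowest in Y3/CD103-/-.

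The spindle and cytokinesis genes went both ways. Kif11, the motor that pushes the spindle poles apart, stood at 4.20, 4.42 and 4.03 on the Y3/CD103-/- arrays, 3.98, 3.87 and 4.29 on the Y3 arrays and 3.49, 3.67 and 3.77 on the WT arrays. Its Y3/CD103-/- and Y3 arrays all lay above the WT arrays, with differences of 0.58 ± 0.17 (adjusted p = 0.176) and 0.41 ± 0.17 (adjusted p = 0.266). Nusap1, a microtubule-binding protein of the spindle, was at 3.31, 3.28 and 3.40 on the Y3/CD103-/- arrays, 3.49, 3.75 and 3.63 on the Y3 arrays and 3.92, 3.67 and 3.61 on the WT arrays. In Y3/CD103-/- it lay below every other array, with a log2 difference from WT of -0.40 ± 0.15 (adjusted p = 0.283) and from Y3 of -0.29 ± 0.15 (adjusted p = 0.547). Kif23, a motor of the central spindle needed for cytokinesis, was at 3.80, 4.24 and 3.68 on the Y3/CD103-/- arrays, 3.94, 3.79 and 3.75 on the Y3 arrays and 4.25, 4.16 and 3.98 on the WT arrays. The Y3 arrays lay below all WT arrays (log2 difference -0.30 ± 0.18, adjusted p = 0.404), and the Y3/CD103-/- arrays overlapped WT (-0.22, adjusted p = 0.642). None of these differences passed. Kif20a and Prc1, which also act on the central spindle, differed from WT by 0.05 and -0.10 in Y3/CD103-/- and by 0.23 and -0.22 in Y3. Tpx2, Ect2 and Stmn1 were too dim to test.

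The MCM helicase, which unwinds DNA at the replication fork, had all 6 subunits on the arrays, and 0 of 6 passed. Mcm5 was the subunit with the widest gap, at 4.42, 3.87 and 3.98 on the Y3/CD103-/- arrays, 4.42, 3.91 and 3.99 on the Y3 arrays and 3.35, 2.98 and 3.38 on the WT arrays. All 6 arrays of the Y3/CD103-/- and Y3 genotypes lay above all WT arrays, with differences of 0.85 ± 0.21 in Y3/CD103-/- (adjusted p = 0.0926) and 0.87 ± 0.21 in Y3 (adjusted p = 0.0886). Mcm5 did not pass with any 1 array left out (adjusted p from 0.111 to 0.21 in Y3/CD103-/- and 0.07 to 0.291 in Y3), and passed in Y3 with array weights (adjusted p = 0.0353). Mcm4 was at 6.10, 6.87 and 6.63 on the Y3/CD103-/- arrays, 6.73, 6.25 and 6.73 on the Y3 arrays and 5.81, 6.27 and 6.04 on the WT arrays. Its Y3/CD103-/- array 1 and Y3 array 2 lay within the WT range, and the differences were 0.49 ± 0.23 (adjusted p = 0.386) and 0.53 ± 0.23 (adjusted p = 0.271).

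Mcm6 had little spread, at 6.56, 6.85 and 6.80 on the Y3/CD103-/- arrays, 6.90, 6.72 and 6.95 on the Y3 arrays and 6.57, 6.58 and 6.64 on the WT arrays. The Y3 arrays lay above the WT arrays by a narrow margin (log2 difference 0.26 ± 0.15, adjusted p = 0.393), and the Y3/CD103-/- arrays overlapped them (0.14, adjusted p = 0.738). Mcm2 was at 4.85, 5.01 and 4.88 on the Y3/CD103-/- arrays, 5.29, 4.35 and 5.14 on the Y3 arrays and 4.77, 4.77 and 4.53 on the WT arrays. Y3 array 2 was the lowest of all 9 and the Y3/CD103-/- arrays lay just above WT. Mcm2 differed from WT by 0.22 in Y3/CD103-/- and 0.24 in Y3 (adjusted p = 0.724 and 0.616). Mcm3 and Mcm7 differed from WT by 0.06 and -0.02 in Y3/CD103-/- and by 0.19 and 0.11 in Y3. The 6 subunits therefore ran from -0.02 to 0.85 in Y3/CD103-/- and from 0.11 to 0.87 in Y3.

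**Figure D3:**
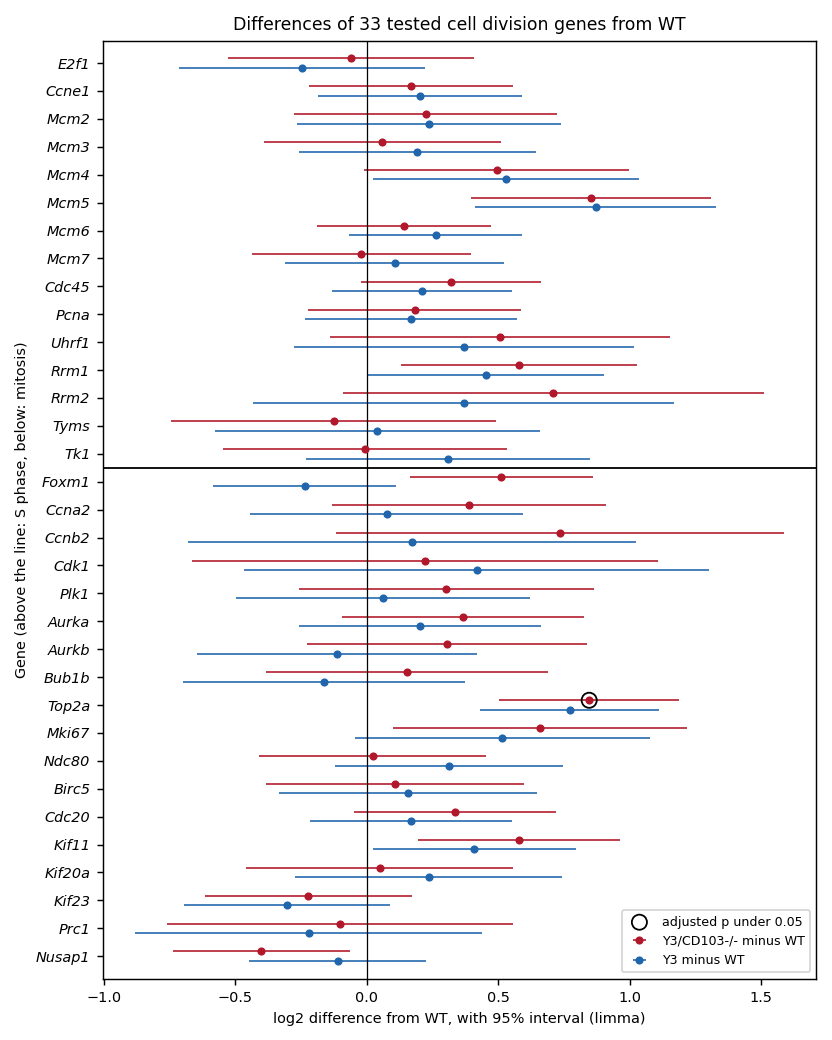
Log2 difference from WT of the 33 tested cell division genes in Y3/CD103-/- (red) and Y3 (blue), with 95% intervals from limma. The circled point, Top2a in Y3/CD103-/-, is the single one with an adjusted p under 0.05. The 2 genotypes share the WT arrays, so their points are not independent.

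Of the genes that make deoxynucleotides, 0 of 4 passed. Rrm1, the large subunit of ribonucleotide reductase, stood at 5.77, 6.18 and 5.86 on the Y3/CD103-/- arrays, 5.96, 5.57 and 5.90 on the Y3 arrays and 5.0, 5.63 and 5.44 on the WT arrays. Its Y3/CD103-/- arrays lay above the WT arrays and Y3 array 2 fell within the WT range. The differences were 0.58 ± 0.20 in Y3/CD103-/- (adjusted p = 0.242) and 0.45 ± 0.20 in Y3 (adjusted p = 0.289). Rrm2, its S phase-specific small subunit, was at 4.64, 4.36 and 3.98 on the Y3/CD103-/- arrays, 4.14, 3.51 and 4.30 on the Y3 arrays and 3.54, 4.45 and 2.85 on the WT arrays. WT spanned most of the range of the other genotypes, and the 95% interval of the Y3/CD103-/- difference was -0.09 to 1.51. A second, dimmer Rrm2 feature gave 2.62, 3.82 and 3.14 in Y3/CD103-/-, 3.60, 3.38 and 3.17 in Y3 and 2.77, 3.53 and 2.84 in WT, again with overlap. Tk1, the thymidine kinase of the salvage pathway, was at 4.83, 4.47 and 4.72 on the Y3/CD103-/- arrays, 4.81, 5.04 and 5.11 on the Y3 arrays and 4.97, 4.06 and 5.0 on the WT arrays, where the low WT array 2 set most of the spread. Tk1 differed from WT by -0.01 in Y3/CD103-/- and 0.31 in Y3. Tyms, thymidylate synthase, differed by -0.13 and 0.04, and has a near copy (Tyms-ps) with which another feature, not used here, is shared.

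Pcna, the sliding clamp of DNA polymerase, was at 7.86, 8.45 and 8.40 on the Y3/CD103-/- arrays, 8.13, 8.26 and 8.27 on the Y3 arrays and 7.90, 8.12 and 8.14 on the WT arrays. The genotypes overlapped, and the differences of 0.18 in Y3/CD103-/- (95% interval -0.22 to 0.59) and 0.17 in Y3 (-0.24 to 0.57) did not pass (adjusted p = 0.72 and 0.663). Cdc45, which joins MCM to form the active helicase, was at 3.76, 4.05 and 3.84 on the Y3/CD103-/- arrays, 3.79, 3.63 and 3.89 on the Y3 arrays and 3.68, 3.58 and 3.43 on the WT arrays. The Y3/CD103-/- arrays lay just above the WT arrays (log2 difference 0.32 ± 0.16, adjusted p = 0.41), while Y3 overlapped WT (0.21, adjusted p = 0.515). Uhrf1, which carries DNA methylation through replication, differed by 0.51 and 0.37, and 1 high array of Y3/CD103-/- (4.81) set the first of these. Cdc6, which loads the helicase, was too dim to test.

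Of the regulators at the head of the programme, 2 of 4 were tested and 0 passed. E2f1, the activator of the S phase genes, was at 3.66, 3.47 and 3.78 on the Y3/CD103-/- arrays, 3.43, 3.31 and 3.62 on the Y3 arrays and 4.17, 3.56 and 3.36 on the WT arrays. It differed from WT by -0.06 in Y3/CD103-/- (95% interval -0.53 to 0.41) and -0.25 in Y3 (-0.71 to 0.22), with WT array 1 the highest of all 9 arrays. Ccne1, cyclin E1, was near the median of its arrays at 3.03, 3.16 and 3.21 on the Y3/CD103-/- arrays, 3.31, 2.98 and 3.22 on the Y3 arrays and 3.09, 2.65 and 3.15 on the WT arrays. It was above that median on 3 of the 9 arrays and differed by 0.17 and 0.20 (adjusted p = 0.735 and 0.577). E2f8, a repressor of the E2F family, was too dim to test.

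Set against all tested genes, the counts were as follows. In Y3/CD103-/- against WT, Top2a was called among 33 cell division genes, higher, and 0 were called lower. Of all genes 0.836% were called in that comparison, 0.555% higher and 0.281% lower. Without adjustment, at p under 0.05, 6 genes (Top2a, Mki67, Foxm1, Kif11, Mcm5 and Rrm1) lay higher and Nusap1 lower, where 7.90% of all genes lay higher and 5.35% lower. The arrays of the genotypes did not overlap, upward, for 8 of the 33 (Top2a, Mki67, Foxm1, Kif11, Mcm2, Mcm5, Rrm1 and Cdc45) and, downward, for Nusap1, where 10.7% of all genes did so upward and 6.68% downward. The median difference of the 33 was 0.22, that of the mitotic genes 0.30 and that of the S phase genes 0.18, against 0.04 for all genes. Of the 33, 26 lay above 0 and 7 below, against 55.1% of all genes above and 44.9% below. Without Y3/CD103-/- array 2 the median of the mitotic genes was 0.16, and without array 3 it was 0.39.

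In Y3 against WT, 0 of 33 were called in limma, where 0.790% of all genes were, 0.618% higher and 0.172% lower. Without adjustment 5 genes lay higher at p under 0.05 (Top2a, Mcm4, Mcm5, Rrm1 and Kif11) and 0 lower, where 13.4% of all genes lay higher and 3.60% lower. The share of cell division genes was thus close to the background, and the split depended on scaling. It was 2 higher and 1 lower with quantile normalization, and 2 higher and 2 lower when each array was centred on the median of its tested genes, a setting chosen after seeing the data. The arrays did not overlap for 4 genes upward (Top2a, Mcm5, Mcm6 and Kif11) and for Kif23 downward, where 19.0% of all genes did so upward and 4.93% downward. The median difference was 0.20 for the 33 genes, 0.24 for the S phase genes and 0.16 for the mitotic genes, against 0.15 for all genes. Of the 33 genes 26 lay above 0 and 7 below, against 70.5% of all genes above and 29.5% below. Without WT array 2 the mitotic median was 0.033. After the same centring the S phase median was 0.070 and the mitotic median -0.0031, and 21 genes lay above 0 and 12 below, with 47.4% of all genes above.

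In Y3/CD103-/- against Y3, limma called 0 of 33, and 0.00782% of all genes, namely 1 gene. Foxm1 lay higher and 0 genes lower when p under 0.05 was taken without adjustment, where 1.78% of all genes lay higher and 8.12% lower. Foxm1 and Ccnb2 did not overlap upward and Nusap1 downward, against 4.11% of all genes upward and 14.4% downward. The median difference was 0.15 for the mitotic genes and -0.02 for the S phase genes, against -0.10 for all genes. Of the 33, 19 lay above 0 and 14 below, against 33.8% of all genes above and 66.2% below. These counts were 22 and 11 with quantile normalization (46.9% of all genes above), and 27 and 6 after centring on the tested genes (58.1% of all genes above). Without Y3/CD103-/- array 2 the mitotic median was 0.026. The S phase median had no stable sign, at 0.082 without Y3 array 1 and -0.13 without Y3 array 2.

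**Figure D4:**
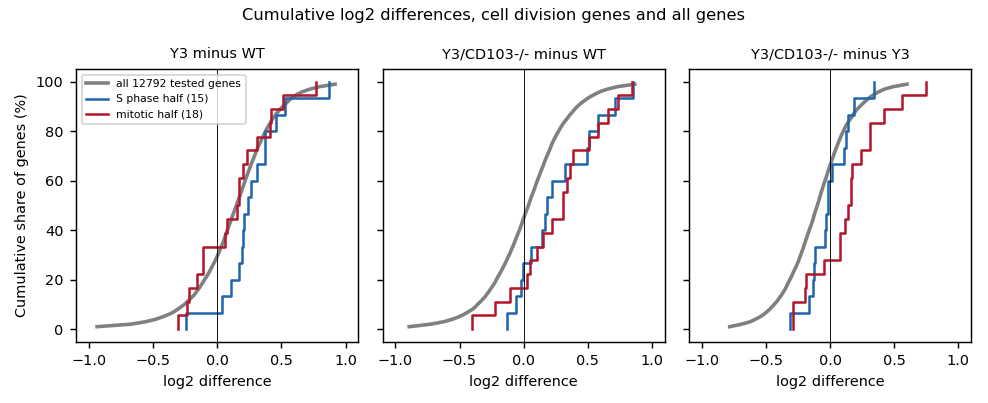
Cumulative share of genes (vertical axis) with a log2 difference up to the value on the horizontal axis, for all 12792 tested genes, the 15 S phase genes and the 18 mitotic genes in each comparison. In Y3 minus WT the mitotic curve follows that of all genes around its median of 0.16, and in the comparisons of Y3/CD103-/- it lies to the right of it.

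On single arrays, the mean log2 level of the 18 mitotic genes was 3.86, 4.04 and 3.70 in Y3/CD103-/-, 3.80, 3.61 and 3.77 in Y3 and 3.61, 3.59 and 3.58 in WT. That of the 15 S phase genes was 4.84, 4.90 and 4.80 in Y3/CD103-/-, 4.96, 4.64 and 4.95 in Y3 and 4.60, 4.62 and 4.51 in WT. WT arrays varied little in either mean, and Y3 array 2 lay beside them. The mitotic mean minus the S phase mean, which an array-wide shift does not move, averaged -0.98 ± 0.12 (SD, n = 3) in Y3/CD103-/-, -1.12 ± 0.09 in Y3 and -0.98 ± 0.05 in WT. The differences between genotypes were 0.0013 for Y3/CD103-/- against WT, -0.14 for Y3 against WT and 0.14 for Y3/CD103-/- against Y3. The last 2 were larger in size than the SD of any genotype, though single arrays of the genotypes compared overlapped. With single arrays left out, the first ran from -0.062 (without Y3/CD103-/- array 2) to 0.063 (without Y3/CD103-/- array 3), and the third from 0.083 to 0.20 without the same arrays. With the stricter filter, above the median on all 9 arrays, the second was -0.072. With the epithelial marker mean as a covariate, the mitotic median was 0.37 in Y3/CD103-/- against WT, 0.084 in Y3 against WT and 0.078 in Y3/CD103-/- against Y3, and the S phase median was 0.11, 0.30 and -0.048 in these comparisons. Within Y3/CD103-/-, array 2 was the highest for 11 of the 18 mitotic genes and array 3 the lowest for 10. Within Y3, array 2 was the lowest for 12 of the 15 S phase genes.

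**Figure D5:**
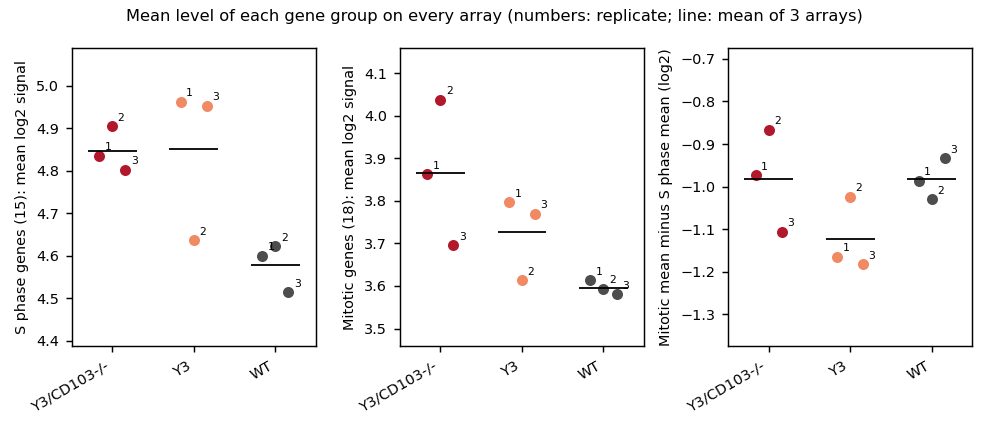
Mean log2 level of the S phase genes, of the mitotic genes and their difference on each array, by genotype, with the replicate number beside each point and a line at the mean of 3 arrays. Y3 array 2 lies at 4.64 in the S phase panel, near the WT arrays, and Y3/CD103-/- array 2 has the highest mitotic mean, 4.04.

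The 10 members that were measured and not tested lay between log2 1.72 and 3.27, with 8 of them at or below their array's median on every array. Of the 33 tested, 21 were above it on all 9 arrays, and the other 12 passed on 3 to 8 arrays. A gene that passes such a filter through the genotype where it is high will tend to differ, so the counts over the 33 describe them and support nothing further. Over the 21 genes the median difference from WT was 0.22 in Y3/CD103-/- and 0.21 in Y3. Over all 8826 genes above the median on all 9 arrays it was 0.05 and 0.18.

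Other genes of the cycle, taken from lists that share no gene with the 45, were tested in the same fit. Of all tested genes, 0.555% were called higher and 0.281% lower in Y3/CD103-/- against WT, and 0.618% and 0.172% in Y3 against WT. Of 25 other S phase genes tested, Hells was the single one that rose in each Y3 genotype, and 0 fell. Hells encodes a chromatin remodeller needed for DNA methylation, and stood at 3.61, 3.85 and 3.54 on the Y3/CD103-/- arrays, 4.10, 3.28 and 3.88 on the Y3 arrays and 2.31, 2.22 and 2.58 on the WT arrays. Every WT array was below its array's median, so Hells entered the test through the other genotypes alone. Its log2 difference from WT was 1.29 ± 0.22 in Y3/CD103-/- (adjusted p = 0.0247) and 1.38 ± 0.22 in Y3 (adjusted p = 0.0185). The call in Y3/CD103-/- was lost without WT array 1 or 2, Y3 array 3 or Y3/CD103-/- array 1, 2 or 3 (adjusted p up to 0.0795), and that in Y3 without WT array 2 or Y3 array 1 or 3 (up to 0.12).

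Of 26 other mitotic genes tested, Cenpa and Lmnb1 rose in Y3/CD103-/- and Cenpa in Y3, and 0 fell. Cenpa, the histone variant of centromeres, stood at 6.28, 6.42 and 6.26 on the Y3/CD103-/- arrays, 6.29, 6.56 and 6.27 on the Y3 arrays and 5.51, 5.53 and 5.62 on the WT arrays, and all 6 arrays of the Y3/CD103-/- and Y3 genotypes lay above WT. It differed from WT by 0.76 ± 0.15 in Y3/CD103-/- (adjusted p = 0.0447) and 0.82 ± 0.15 in Y3 (adjusted p = 0.0342). Lmnb1, lamin B1 of the nuclear envelope, rose by 0.89 ± 0.16 in Y3/CD103-/- (adjusted p = 0.0347). The calls in Y3/CD103-/- were lost without any 1 of the 9 arrays (adjusted p from 0.0521 to 0.119 for Cenpa and 0.0517 to 0.0987 for Lmnb1). That of Cenpa in Y3 passed without Y3/CD103-/- array 1 or 2 and was lost without any 1 of the other 7 arrays (up to 0.132).

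Of 21 regulators of the RB, E2F and DREAM group, Lin54 rose in Y3/CD103-/- and 0 passed in Y3. Lin54 encodes the DREAM and MMB subunit that binds the CHR. It differed from WT by 0.78 ± 0.15 in Y3/CD103-/- (adjusted p = 0.0465) and 0.65 ± 0.15 in Y3 (adjusted p = 0.0846), and the call was lost without any 1 array (0.0615 to 0.142). Among 11 D-type cyclins, their kinases and CDK inhibitors, Cdkn1a, which encodes the CDK inhibitor p21, rose in Y3 by 0.99 ± 0.20 (adjusted p = 0.0497), against 0.81 ± 0.20 in Y3/CD103-/- (adjusted p = 0.0925). It kept its call without Y3/CD103-/- array 1 or 2 and lost it when any other array was left out (adjusted p up to 0.229). Of 12 quiescence genes 0 passed in limma. At an unadjusted p under 0.05 Klf2 and Foxp1 were lower in each genotype and 0 were higher. Of all genes, 5.35% were lower in Y3/CD103-/- and 3.60% in Y3. The 12 went both ways, with 5 above 0 and 7 below in Y3/CD103-/-, and 7 above and 5 below in Y3. Foxo3 was the highest of them, at 0.37 and 0.50. Klf2, a factor of resting T cells, differed from WT by -0.71 in Y3/CD103-/- (adjusted p = 0.0799) and -0.70 in Y3 (adjusted p = 0.0832). In Y3/CD103-/- against Y3, 0 genes of these 5 lists were called in limma. By unadjusted p under 0.05, 2 lay higher and 6 lower of the 25, 26, 21, 11 and 12 genes tested in these lists. Of all genes, 1.78% lay higher and 8.12% lower.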

How the data were processed

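Per the labels, total RNA of sorted Tregs was amplified once, labelled with biotin and hybridised to 1-colour Affymetrix Gene ST2.0 arrays. The deposited values are log2 signals summarised by RMA per the submitters' processing notes, whose version the sources used here do not give. They ran from 0.115 to 14.1, and array medians from 3.15 to 3.23. Per the platform annotation, 23521 of 39137 features name 1 gene, 1814 name several and 13802 name none. Only features with 1 gene were used, the one with the highest mean per gene. A gene entered the test if it exceeded its array's median on 3 or more arrays, and 9388 genes did not.

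No further normalization was applied. All 9 arrays entered 1 limma fit (limma 3.58.1, R 4.3.3) of log2 signal on genotype, with eBayes and Benjamini-Hochberg adjustment over the 12792 genes within each comparison. A gene was called at an adjusted p under 0.05, and all p are two-sided. The fit was tested on simulated data with added changes larger than any difference of the cell division genes. That test does not show how often differences of their size would be found. Intervals are 95% intervals, with a median width of 0.447 log2 to each side in Y3 against WT.

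Values on all 9 arrays are given for members that were called, for the 4 S phase and the 4 mitotic genes of smallest p against WT in each genotype, for the 2 of each in Y3/CD103-/- against Y3, and for 9 genes named in any case. In the other lists, genes that passed are named. The members and lists were chosen with earlier results of these data known. Same-numbered arrays of different genotypes did not deviate together (r from -0.044 to 0.107 over 9 pairs, 1 above 0.1), so the numbers were not taken as pairs. The alternatives used another filter, scaling, threshold, variance model or feature per gene, weighted the arrays, fitted only the 2 groups compared, counted Stmn1 with the S phase genes, added the replicate block or an epithelial covariate, averaged Y3 arrays 1 and 3, or left out each array in turn.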

Additional observations from a re-analysis of the deposited data

How the results depend on the processing

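Top2a was called in Y3/CD103-/- against WT in 6 of 21 alternatives, and lost in the other 15. The count of cell division genes called there was 0 with no filter, with array weights, with only the 2 groups compared, with the replicate block (Top2a adjusted p = 0.08), with Y3 arrays 1 and 3 averaged, with the epithelial covariate, and without any 1 array (0 to 0), and 2 at an adjusted p under 0.10. The cause of these losses was not tested. In Y3 against WT the count was 1 with the stricter filter, with the mean of a gene's features or with an intensity trend, and 2 with array weights or at the threshold of 0.10. Of all 8826 genes tested with the stricter filter, 174 were called higher and 48 lower in Y3 against WT. These counts were 80 and 23 of 12667 with the mean of features. They were 250 and 82 of 12792 with the trend, and 267 and 79 with array weights. At the threshold of 0.10 no share over all genes is given, so the member counts there have no background beside them. The count of cell division genes called stayed at 0 under every alternative in Y3/CD103-/- against Y3. Over all genes, calls with a positive difference numbered 79 in the fit reported for Y3 against WT and 7 to 267 under the alternatives, and 71 for Y3/CD103-/- against WT and 12 to 202. Quantile normalization split the calls in Y3 against WT into 46 higher and 32 lower, where the fit reported had 79 and 22. Centring on the tested genes turned that balance, with 46 higher and 54 lower. Centred on the tested genes' median, a setting chosen after seeing the data, the median difference in Y3 against WT was 0.036 for the 33 genes, 0.070 for the S phase genes and -0.0031 for the mitotic genes. In Y3/CD103-/- against Y3 the same setting gave 0.23 for the 33 genes, 0.13 for the S phase genes and 0.30 for the mitotic genes. With arrays left out in turn, the mitotic median ranged from 0.033 to 0.19 in Y3 against WT, 0.16 to 0.39 in Y3/CD103-/- against WT and 0.026 to 0.24 in Y3/CD103-/- against Y3. The median of the 33 genes ranged from 0.16 to 0.34 in Y3/CD103-/- against WT. The mitotic median was 0.14 in Y3/CD103-/- against WT with no filter and 0.029 in Y3/CD103-/- against Y3 with array weights, where the median of the 33 genes was -0.019. Mitotic minus S phase in Y3/CD103-/- against WT was 0.11 with the stricter filter. Of the genes outside the 45, calls were lost under 5 alternatives for Hells in Y3 and 9 in Y3/CD103-/-, 14 and 18 for Cenpa, 15 for Lmnb1, 17 for Lin54 and 15 for Cdkn1a. With 3 arrays a genotype, and some members near the array median, differences could be missed. For a gene that did not pass, any difference within its 95% interval remained possible.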
